A study of Cricetulus griseus with 24 samples.

Results

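Amino acid transporters of the solute carrier families SLC1, SLC3, SLC6, SLC7, SLC36, SLC38 and SLC43 were examined in Chinese hamster ovary (CHO) cells at exponential and stationary phase. All rows of the gene count table whose symbol began with Slc and 1 of these family numbers were taken, which gave 56 of 28037 rows. Of these, 26 had a mean level of 1 CPM or more over the 20 cultures and 7 had no count in any culture. CPM are counts scaled to library size after TMM normalization, which brings the cultures to a common composition, and they are not corrected for gene length, so levels are compared between cultures and not between genes. The row Slc7a6os, an opposite-strand neighbour of Slc7a6 that is not a transporter, fell under the name rule and was kept.

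Amino acids cross the plasma membrane through carriers that differ in substrate and in driving force. In the heteromeric transporters a heavy chain, Slc3a2 or Slc3a1, brings a light chain of the SLC7 family to the membrane, and the light chain exchanges one amino acid for another. Sodium coupled carriers such as Slc1a5 and Slc38a2 import glutamine and other small neutral amino acids, which the exchangers then trade for leucine, arginine or cystine. When amino acids run short, the kinase GCN2 and the transcription factor Atf4 are known to raise many of these carriers together with asparagine synthetase and other biosynthetic enzymes, and the mTORC1 pathway reads amino acids released from lysosomes.

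The study compared A0, an antibody-producing clone derived from DG44 cells, with its methotrexate-amplified progeny A1, and CHO-S served as a non-producing line. The CHO-S cultures are titled NDST, a name the sources used here do not explain, and a change to that line beyond the name CHO-S is not known. A0 and A1 both carry a plasmid for the IgG heavy chain and a plasmid for the light chain with neomycin resistance, and both had been selected with G418. A1 had in addition been selected with methotrexate. Each line is a single clone or line grown in suspension, and CHO-S differs from A0 and A1 in host lineage as well as in antibody production, so those differences cannot be told apart. The data cover 4 A0 and 3 A1 and 3 CHO-S cultures at each phase, and 2 libraries of each A0 exponential culture were summed. Amino acids in the medium were not measured in these data, and culture day was not given in the labels.

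The cultures held 1038026 to 26584337 reads on genes. The shallowest, culture 1 of CHO-S at stationary phase, stood apart from its group, with a median absolute log2 difference of 0.603 per gene against at most 0.319 in any other culture. Results on transporters that turn on stationary CHO-S are therefore given with and without it, except for levels in single cultures and for calls lost on leaving out other cultures. Within A0, cultures 1 and 2 stood apart from cultures 3 and 4 for several transporters, and the second exponential library is labelled RLT in cultures 1 and 2 and Duplicate in cultures 3 and 4, which the labels do not explain further. The mesenchymal markers Vim and Lgals1 were at 728 to 1465 CPM and 672 to 2773 CPM, the cadherin Cdh2 was at 30.6 to 71.1 CPM in A0 and A1 and had no count in CHO-S, the epithelial keratins Krt8 and Krt18 were at or near 0, and the 6 markers of other cell types summed to 1.64 to 7.32 CPM. Col4a1 was at 1882 CPM or more in CHO-S and at 0.305 to 2.84 CPM in A0 and A1, except in A1 exponential culture 1, which had 45.2 CPM. The proliferation marker Mki67 averaged 1323 CPM in exponential and 476 CPM in stationary A0, 1288 and 942 CPM in A1, and 792 and 531 CPM in CHO-S (416 CPM without stationary culture 1). In bulk RNA a lower level per cell and fewer cells that express a gene cannot be told apart.

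Summed over the 56 rows, transporter RNA was at 1881 to 1989 CPM in the exponential A0 cultures and at 2803 to 2949 CPM in the stationary ones. The sum was 2030 to 2125 CPM in exponential and 2232 to 2379 CPM in stationary A1. In CHO-S it was 1730 to 1830 CPM in exponential culture and 1248, 1563 and 1601 CPM in stationary cultures 1 to 3. The sum was thus higher at stationary phase in both producing lines and lower in CHO-S, without overlap between phases in any of the lines, and it was not tested.

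**Figure D1:**
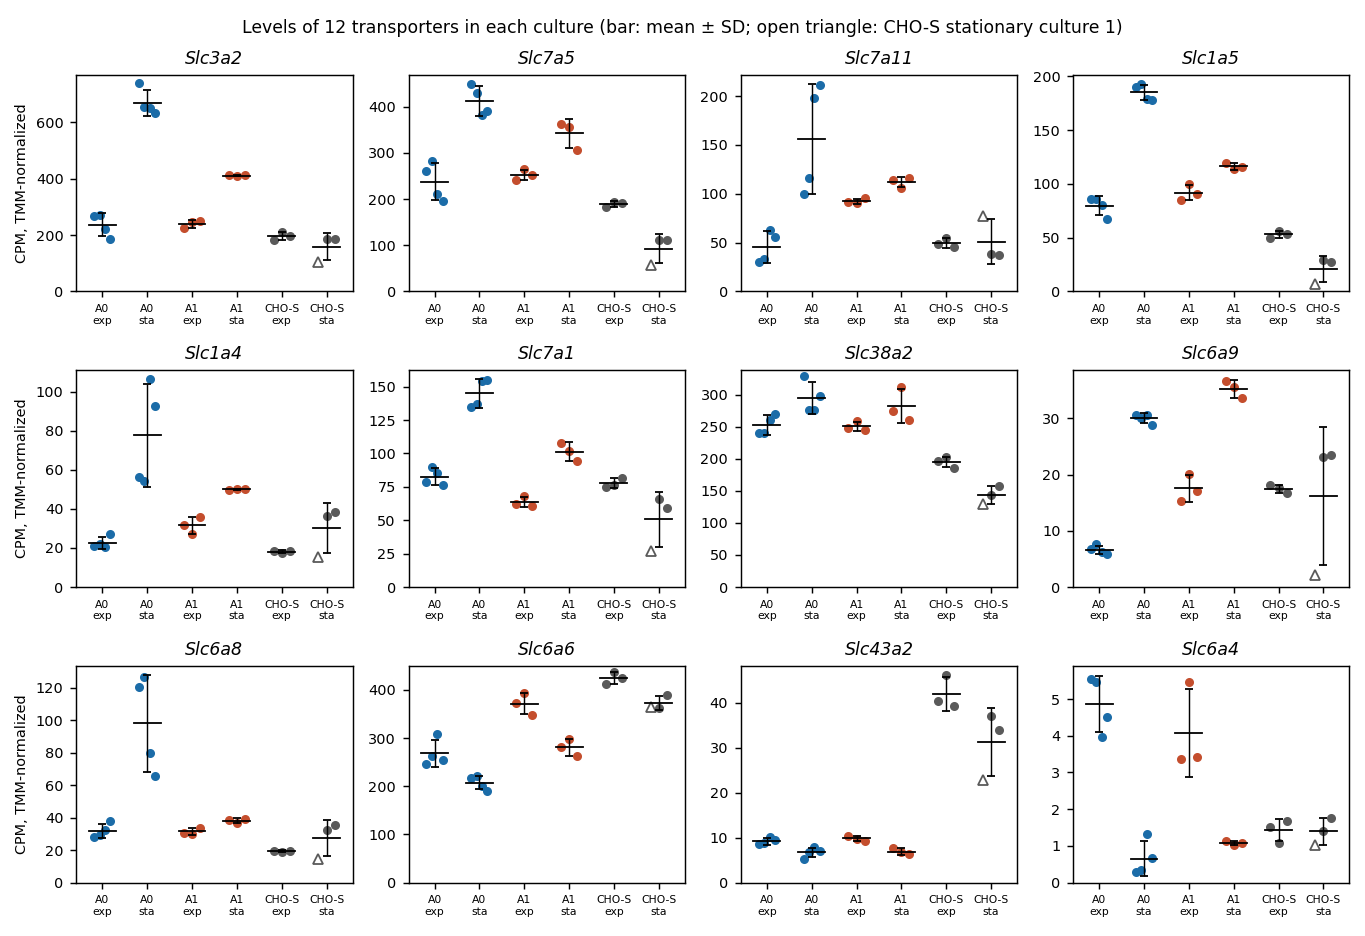
Levels of 12 transporters in CPM (linear axis from 0) in each culture, grouped by cell line and growth phase (exp, exponential; sta, stationary). Points are cultures, black bars show the mean ± SD, and the open triangle is CHO-S stationary culture 1; Slc3a2, Slc7a5, Slc1a5 and Slc7a1 lie higher at stationary than at exponential phase in A0 and A1, whereas Slc7a5 and Slc1a5 lie lower in CHO-S.

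Stationary and exponential cultures of A0 were compared first, to see which carriers differed between growth phases. Among the 26 rows at 1 CPM or more, the largest rises were in Slc6a9, a glycine carrier, Slc7a11, the light chain of the cystine and glutamate exchanger, Slc1a4, a carrier of alanine, serine and cysteine, and Slc6a8, the creatine transporter. The heavy chain Slc3a2 and its partner Slc7a5, which imports leucine and other large neutral amino acids, rose with them, as did the glutamine carrier Slc1a5 and the arginine and lysine carrier Slc7a1. The serotonin transporter Slc6a4 fell most. Of the 56 rows, 40 had enough counts to be tested and 15 rose and 5 fell past an adjusted p of 0.05 (edgeR's quasi-likelihood test, Benjamini-Hochberg adjustment), where 17.7% of all 20267 genes tested rose and 20.1% fell. Among the 26 expressed rows, 11 rose and 5 fell, against 22.9% and 29.6% of all genes at 1 CPM or more. The median log2 fold change was 0.22 over the 26 rows and -0.06 over all genes at that level.

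Slc3a2 was at 268.5, 272, 221 and 186 CPM in exponential A0 cultures 1 to 4 and at 737, 652, 649 and 634 CPM in stationary cultures 1 to 4. Every stationary culture was above every exponential one, and it rose 2.80-fold, by 1.48 ± 0.12 on the log2 scale (± is the standard error of the fit, adjusted p = 1.4e-07). Slc7a5 was at 260, 281, 211 and 196 CPM in exponential and 450, 429, 382 and 389 CPM in stationary culture, a log2 fold change of 0.79 ± 0.12 (adjusted p = 5.4e-05). The fold change of the light chain was the smaller one, although the difference between the chains was not tested. Slc7a11 went from 30.2, 32.9, 62.7 and 55.5 CPM to 99.9, 116, 198 and 212 CPM, a log2 fold change of 1.78 ± 0.25 (adjusted p = 3.3e-05). Here cultures 3 and 4 were higher than cultures 1 and 2 at both phases, and the rise was present in each pair.

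Among the light chains that exchange cationic for neutral amino acids, Slc7a7 was at 16.9 to 21.9 CPM in exponential and 25.4 to 33.1 CPM in stationary A0, and its log2 fold change was 0.63 ± 0.12 (adjusted p = 0.00044). Within cultures 3 and 4 alone it was 0.53 and no longer past the threshold (adjusted p = 0.062). Slc7a6, which has the same kind of transport, was at 40.7, 38.1, 39.6 and 40.1 CPM in exponential and 44.4, 40.6, 38.4 and 39.3 CPM in stationary culture (log2 fold change 0.03 ± 0.09, less than its error). Slc7a10, a carrier of small neutral amino acids, was at 5.04, 5.63, 4.14 and 4.29 CPM in exponential and 3.44, 3.53, 2.73 and 3.82 CPM in stationary culture, a log2 fold change of -0.51 ± 0.18 (adjusted p = 0.038). That call was lost, with an adjusted p of 0.061 to 0.12, when exponential culture 1 or 2 or stationary culture 1, 2 or 3 was left out. The second heavy chain, Slc3a1, stayed at 1.52 to 2.60 CPM.

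Slc1a5 was at 85.8, 86.1, 80.0 and 67.7 CPM in exponential A0 and at 190, 192, 179 and 178 CPM in stationary A0. The phases did not overlap, and the log2 fold change was 1.20 ± 0.10 (adjusted p = 1.4e-07). Slc1a4 was at 21.1, 21.9, 20.5 and 27.3 CPM and then at 56.6, 54.5, 107 and 92.9 CPM, a log2 fold change of 1.77 ± 0.19 (adjusted p = 2.0e-06), and stationary cultures 3 and 4 were again above cultures 1 and 2. Slc7a1 rose from 79.0, 90.0, 85.4 and 76.5 CPM to 135, 137, 154 and 155 CPM, a log2 fold change of 0.80 ± 0.09 (adjusted p = 5.7e-06). The glial type glutamate carriers differed from these neutral and cationic carriers. Slc1a3 was at 14.4 to 18.6 CPM in exponential and 12.2 to 15.4 CPM in stationary culture (log2 fold change -0.33 ± 0.13, adjusted p = 0.051), a fall that passed the threshold without exponential culture 2 (-0.39, adjusted p = 0.038), without stationary culture 4 (-0.42, adjusted p = 0.025) and with a culture block (-0.33, adjusted p = 0.017). Slc1a2 was at 1.43 to 1.96 CPM in both phases.

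The SLC6 family moved in both directions. Slc6a9 was at 6.77, 7.59, 6.31 and 5.94 CPM in exponential A0 and at 30.6, 30.1, 30.6 and 28.9 CPM in stationary A0, a log2 fold change of 2.16 ± 0.12 (adjusted p = 2.4e-09) and 4.47-fold. It had the largest rise among the expressed transporters, and the stationary cultures lay close together. Slc6a8 was at 28.3 to 37.7 CPM in exponential culture and at 120, 126, 79.7 and 65.7 CPM in stationary culture (log2 fold change 1.61 ± 0.18, adjusted p = 2.6e-06), where cultures 1 and 2 were the high ones, the reverse of Slc7a11 and Slc1a4. The taurine carrier Slc6a6 was at 246, 262, 309 and 255 CPM and then at 216, 221, 201 and 190 CPM, a log2 fold change of -0.38 ± 0.10 (adjusted p = 0.0053). Slc6a4 fell from 5.54, 5.47, 3.98 and 4.50 CPM to 0.279, 0.336, 1.32 and 0.674 CPM (log2 fold change -2.86 ± 0.32, adjusted p = 3.5e-06), and the stationary values rest on 3 to 17 reads a culture. Slc6a15, a carrier of branched-chain amino acids and proline, was at 24.03 to 33.8 CPM across both phases.

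Among the SLC38 carriers, Slc38a4, which takes up neutral and cationic amino acids, rose from 3.06 to 4.75 CPM to 8.26 to 14.7 CPM (log2 fold change 1.49 ± 0.19, adjusted p = 1.4e-05). Slc38a2, the widely expressed system A carrier, was at 240, 240, 260 and 270 CPM in exponential and 328, 276, 276 and 298 CPM in stationary A0. The phases did not overlap, but the log2 fold change of 0.21 ± 0.09 missed the threshold (adjusted p = 0.092) and passed it by DESeq2 (0.24, adjusted p = 0.025), without exponential culture 4 (0.25, adjusted p = 0.036) or within cultures 1 and 2 (0.32, adjusted p = 0.026). Slc38a9, the lysosomal arginine sensor upstream of mTORC1, was at 17.5, 17.2, 21.1 and 23.6 CPM and then at 23.6, 27.9, 30.9 and 27.0 CPM, a log2 fold change of 0.45 ± 0.13 (adjusted p = 0.0092), which fell to 0.38 (adjusted p = 0.068) within cultures 3 and 4. Slc38a10 fell from 372 to 506 CPM to 292 to 359 CPM (log2 fold change -0.41 ± 0.11, adjusted p = 0.0072), a call lost with all 6 groups in 1 fit (-0.40, adjusted p = 0.079). Slc38a7, which moves glutamine and asparagine out of lysosomes, was at 48.8 to 65.5 CPM in exponential and 46.0 to 55.0 CPM in stationary culture, and Slc38a6 was at 15.7 to 22.5 CPM in all.

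Of the SLC43 facilitators, Slc43a2, a carrier of large neutral amino acids that works without sodium, was at 8.47, 8.71, 10.1 and 9.43 CPM in exponential and 5.30, 6.72, 7.79 and 6.97 CPM in stationary A0. The log2 fold change of -0.46 ± 0.15 (adjusted p = 0.022) became -0.41 (adjusted p = 0.061) without exponential culture 3 and -0.36 (adjusted p = 0.077) without stationary culture 1. Slc43a3, known as a carrier of purine nucleobases rather than of amino acids, was at 3.43 to 5.86 CPM in exponential and 4.19 to 6.39 CPM in stationary culture.

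In A1 the same comparison showed smaller changes for several of these carriers. Among the expressed rows Slc43a3, Slc1a2 and Slc6a9 had the largest rises, Slc3a2, Slc7a1, Slc1a4 and Slc7a5 rose by 0.45 to 0.80 on the log2 scale, and Slc6a4 again fell most. Of the 56 rows, 38 could be tested and 14 rose and 4 fell, where 15.6% of all 18548 genes tested rose and 17.8% fell (edgeR). Among the 26 expressed rows 12 rose and 4 fell, against 20.7% and 25.3% of all genes at 1 CPM or more, with a median log2 fold change of 0.23 against -0.01. With all 6 groups in 1 fit, the calls of Slc7a5, Slc7a11, Slc1a5, Slc6a8, Slc38a2, Slc38a9 and Slc38a10 described next were lost (adjusted p = 0.079 to 0.57), and those of Slc3a2, Slc1a4, Slc7a1 and Slc6a9 were not.

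Slc3a2 was at 223, 246 and 249 CPM in exponential A1 cultures 1 to 3 and at 413, 408 and 411 CPM in stationary cultures 1 to 3, a log2 fold change of 0.80 ± 0.06 (adjusted p = 9.8e-13) and a 1.74-fold rise. Slc7a5 was at 242, 264 and 251 CPM and then at 363, 356 and 307 CPM (log2 fold change 0.45 ± 0.06, adjusted p = 3.9e-07). Slc7a11 was already at 91.3, 90.3 and 95.3 CPM in exponential culture and went to 114, 106 and 116 CPM, a log2 fold change of 0.29 ± 0.06 (adjusted p = 0.00036). Phases did not overlap for any of these members of the heteromeric transporters. Slc7a6 was at 39.5, 42.1 and 37.2 CPM and then at 38.2, 45.0 and 39.9 CPM, and here too the phases overlapped. Slc7a7 was at 18.9 to 28.5 CPM in exponential and 21.2 to 36.3 CPM in stationary A1, with overlap, and Slc7a10 and Slc3a1 did not pass the threshold.

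Slc1a5 was at 85.2, 99.6 and 91.0 CPM in exponential A1 and at 120, 114 and 115 CPM in stationary A1, a log2 fold change of 0.36 ± 0.06 (adjusted p = 4.4e-05). Slc1a4 was at 31.7, 27.1 and 36.0 CPM and then at 49.9, 50.2 and 50.4 CPM (log2 fold change 0.68 ± 0.09, adjusted p = 2.0e-07). Slc7a1 was at 62.3, 68.3 and 60.9 CPM and then at 108, 102 and 94.0 CPM (log2 fold change 0.68 ± 0.07, adjusted p = 1.8e-09). These carriers rose in every stationary culture relative to every exponential one. Slc1a2, a low-level glutamate carrier, was at 0.818, 1.02 and 0.991 CPM in exponential and 1.71, 1.89 and 2.08 CPM in stationary A1 (log2 fold change 1.03 ± 0.31, adjusted p = 0.011), on 10 to 25 reads a culture, and without stationary culture 3 the call was lost (0.95, adjusted p = 0.055), as it was by DESeq2 (1.04, adjusted p = 0.070). Slc1a3 stayed at 23.7 to 30.3 CPM.

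Slc6a9 was at 15.4, 20.1 and 17.1 CPM in exponential A1 and at 36.7, 35.5 and 33.5 CPM in stationary A1 (log2 fold change 1.02 ± 0.10, adjusted p = 1.0e-09). Slc6a8 was at 30.7, 30.1 and 33.7 CPM and then at 38.5, 36.4 and 39.3 CPM, a log2 fold change of 0.29 ± 0.08 (adjusted p = 0.0068). Slc6a6 fell from 372, 393 and 348 CPM to 282, 298 and 263 CPM (log2 fold change -0.38 ± 0.06, adjusted p = 3.5e-06), the same size as in A0. Slc6a4 fell from 3.35, 5.46 and 3.43 CPM to 1.14, 1.02 and 1.08 CPM (log2 fold change -1.89 ± 0.28, adjusted p = 2.4e-06), on 8 to 13 reads in each stationary culture.

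Slc38a2 was at 248, 259 and 246 CPM in exponential A1 and at 275, 312 and 261 CPM in stationary A1, a log2 fold change of 0.19 ± 0.06 (adjusted p = 0.013) that did not pass without exponential culture 3 (0.18, adjusted p = 0.083) or stationary culture 2 (0.12, adjusted p = 0.17). Slc38a9 was at 20.8, 19.8 and 18.1 CPM and then at 24.6, 22.7 and 24.4 CPM (log2 fold change 0.30 ± 0.10, adjusted p = 0.016), which did not pass without exponential culture 3 (0.25, adjusted p = 0.089) or stationary culture 3 (0.28, adjusted p = 0.064). Both carriers thus lay only slightly higher at stationary phase. Slc38a10 fell from 392, 387 and 414 CPM to 303, 308 and 287 CPM (log2 fold change -0.39 ± 0.05, adjusted p = 8.0e-07). Slc38a4, at 2.36 to 4.01 CPM and then 3.46 to 6.26 CPM, missed the threshold (0.56 ± 0.23, adjusted p = 0.063), and it passed without exponential culture 2 (0.77, adjusted p = 0.028) or stationary culture 2 (0.75, adjusted p = 0.024). Slc43a3 rose from 3.03, 2.99 and 1.98 CPM to 5.83, 6.61 and 6.41 CPM (log2 fold change 1.27 ± 0.20, adjusted p = 6.1e-06), and Slc43a2 fell from 10.4, 9.73 and 9.30 CPM to 7.68, 6.76 and 6.24 CPM (-0.51 ± 0.14, adjusted p = 0.0064).

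**Figure D2:**
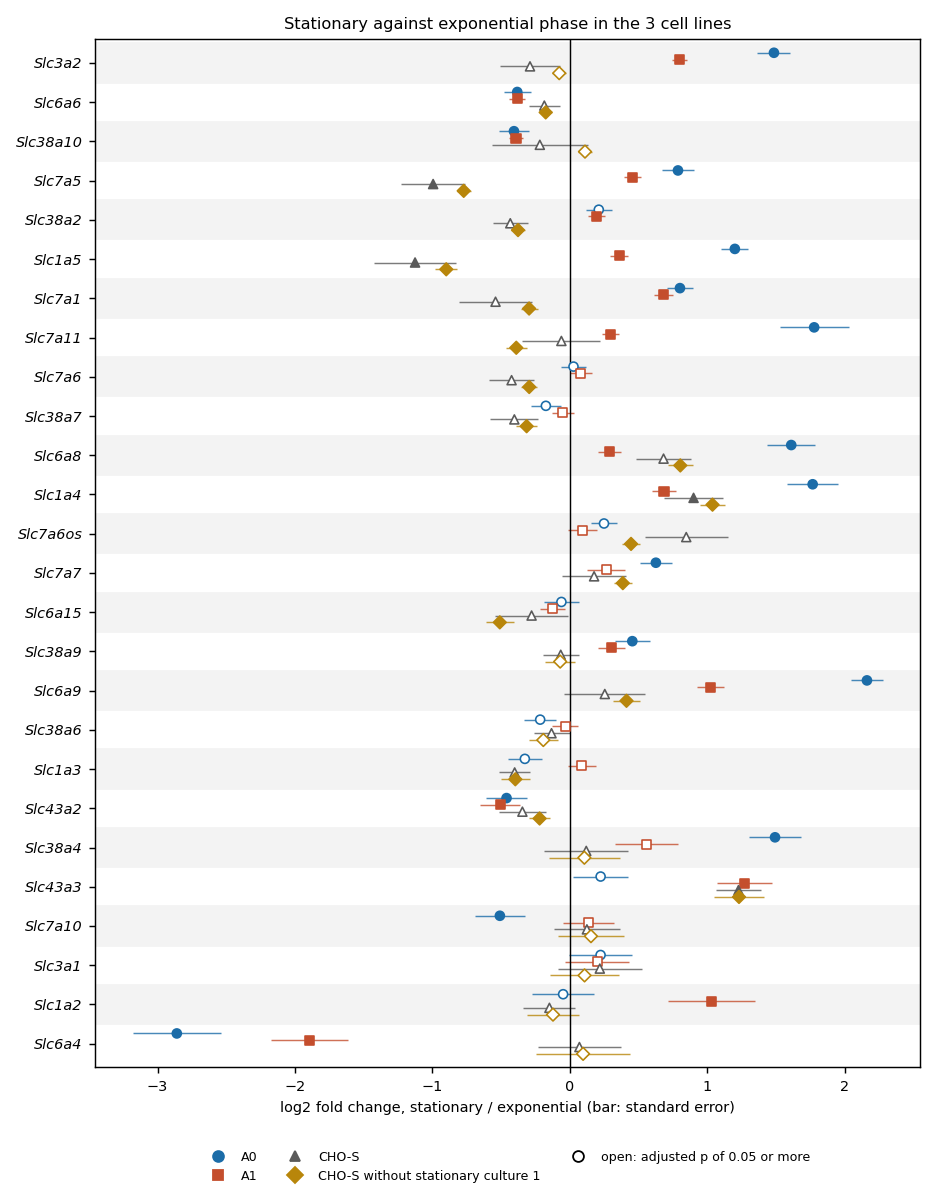
Log2 fold change of stationary over exponential phase for the 26 expressed rows, ordered by mean level, in A0, A1 and CHO-S, the last also without stationary culture 1. Horizontal bars are standard errors and filled symbols passed an adjusted p of 0.05; Slc6a9, Slc1a4, Slc7a11, Slc6a8, Slc3a2 and Slc1a5 lie farther to the right in A0 than in A1, and Slc7a5, Slc1a5 and Slc7a1 lie left of 0 in CHO-S.

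The difference between the A0 and A1 phase responses was tested as an interaction over the 4 groups, where a negative value means a smaller rise or a larger fall in A1. Of 44 rows tested, 1 had a positive and 6 a negative interaction, where 5.04% of all 20953 genes tested had a positive and 3.90% a negative one (edgeR). The 6 negative ones were the heavy chain Slc3a2, the cystine exchanger Slc7a11, the neutral carriers Slc1a5 and Slc1a4, the glycine carrier Slc6a9 and the creatine carrier Slc6a8. Slc7a11 had an interaction of -1.52 ± 0.31 (adjusted p = 0.0029), Slc6a8 of -1.36 ± 0.23 (adjusted p = 0.00077) and Slc6a9 of -1.18 ± 0.16 (adjusted p = 7.7e-05). Slc1a4 had -1.12 ± 0.25 (adjusted p = 0.0052), Slc1a5 -0.88 ± 0.13 (adjusted p = 0.00015) and Slc3a2 -0.72 ± 0.15 (adjusted p = 0.0033). All 6 passed the threshold in each alternative run, including A0 cultures 1 and 2 alone and 3 and 4 alone. Deviations of same-numbered cultures from their group means correlated between phases at 0.19 to 0.44 in A0 and at -0.15 to 0.19 in A1. With a culture block, 1 interaction was positive and 9 were negative, where 8.92% and 7.47% of genes passed. The added calls were Slc38a4 (-0.95, adjusted p = 0.0024), Slc7a5 (-0.38, adjusted p = 0.0086) and Slc7a7 (-0.42, adjusted p = 0.045).

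For the other carriers apart from Slc43a3, the interaction did not pass the threshold with all cultures and no block, so a different response in the lines was not shown there. Slc7a1 had -0.15 ± 0.12, Slc38a2 -0.06 ± 0.12, Slc6a6 -0.04 ± 0.13 and Slc38a10 -0.02 ± 0.13. Slc7a5 had -0.37 ± 0.15 (adjusted p = 0.15), and it passed within A0 cultures 3 and 4 (-0.48, adjusted p = 0.0088). Slc38a4 had -0.96 ± 0.34 (adjusted p = 0.081), which passed without A0 stationary culture 3 (-1.09, adjusted p = 0.035) or A1 stationary culture 1 (-1.18, adjusted p = 0.043). Slc43a3 was the positive interaction, 1.00 ± 0.30 (adjusted p = 0.038), and it was lost on leaving out A0 exponential culture 3 or 4, A0 stationary culture 1 or 4, A1 exponential culture 2 or 3 or any A1 stationary culture (0.82 to 1.12, adjusted p = 0.051 to 0.14). Slc6a4 had 0.92 ± 0.49 (adjusted p = 0.28), but 1.51 (adjusted p = 0.046) without A0 stationary culture 3.

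Direct comparison of A1 with A0 at exponential phase showed which carriers already differed. Slc6a9, Slc7a11, Slc1a3, Slc1a4 and Slc6a6 were higher in A1, and Slc1a2, Slc43a3, Slc38a7, Slc7a6os and Slc7a1 were lower. Of 39 rows tested, 5 were higher and 6 lower in A1, where 12% of all 19946 genes tested were higher and 13.8% lower (edgeR). Among the 26 expressed rows 5 were higher and 5 lower, against 17.2% and 19% of genes at 1 CPM or more. Without A1 culture 1 or 3 the count over all rows was 7 or 6 in place of 11, where 7.97% or 7.32% of genes were higher and 9.38% or 8.67% lower.

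Slc6a9 was at 5.94 to 7.59 CPM in A0 and 15.4 to 20.1 CPM in A1 at exponential phase, and was 1.39 ± 0.14 higher on the log2 scale (adjusted p = 4.8e-06). Slc7a11 was at 30.2 to 62.7 CPM in A0 and 90.3 to 95.3 CPM in A1 (1.03 ± 0.19, adjusted p = 0.0012), with A0 cultures 1 and 2 the lowest. Against A0 cultures 3 and 4 alone Slc7a11 was higher by 0.64 (adjusted p = 0.00086), and against cultures 1 and 2 alone by 1.54 (adjusted p = 1.0e-06). Both carriers were thus higher in A1 at exponential phase already. Slc1a3 was at 14.4 to 18.6 CPM in A0 and 23.7 to 30.3 CPM in A1 (0.66 ± 0.12, adjusted p = 0.0011). Slc6a6 was at 246 to 309 CPM in A0 and 348 to 393 CPM in A1 (0.47 ± 0.10, adjusted p = 0.0021). Slc38a7 was at 48.8 to 65.5 CPM in A0 and 35.7 to 38.8 CPM in A1 (-0.60 ± 0.11, adjusted p = 0.00096). None of these overlapped between the lines, and the calls held with each culture left out.

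The other calls at exponential phase depended on single cultures. Slc1a4 had 0.48 ± 0.13 (adjusted p = 0.012) and was lost without A1 culture 1 (0.47, adjusted p = 0.052) or culture 3 (0.37, adjusted p = 0.11). Slc7a1 had -0.38 ± 0.09 (adjusted p = 0.0077) and was lost without A1 culture 3 (-0.34, adjusted p = 0.059). Slc43a3 had -0.81 ± 0.23 (adjusted p = 0.019) and was lost without A0 culture 3 (-0.75, adjusted p = 0.055) or A1 culture 3 (-0.63, adjusted p = 0.13). Slc1a2 had -0.88 ± 0.27 (adjusted p = 0.023) and was lost without any of A1 cultures 1, 2 or 3 (-0.95 to -0.79, adjusted p = 0.057 to 0.096). Slc7a6os had -0.41 ± 0.10 (adjusted p = 0.0084) and was lost without A1 culture 1 (-0.38, adjusted p = 0.054). With all 6 groups in 1 fit, Slc1a4, Slc7a1 and Slc7a6os did not pass (adjusted p = 0.061 to 0.083). Slc3a2, Slc7a5, Slc38a2 and Slc1a5 overlapped between the lines, with log2 fold changes of 0.01 ± 0.12, 0.09 ± 0.12, -0.01 ± 0.09 and 0.20 ± 0.10. Their values depended on which A0 cultures were used: against cultures 3 and 4 alone Slc7a5 was higher in A1 (0.30, adjusted p = 0.017) and Slc1a5 too (0.31, adjusted p = 0.044), and against cultures 1 and 2 alone Slc3a2 was lower (-0.18, adjusted p = 0.041).

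At stationary phase most of the transporters that differed were lower in A1. Slc6a8, Slc38a4, Slc3a2, Slc1a5, Slc1a4, Slc7a1, Slc38a7, Slc6a15, Slc7a5 and Slc7a6os were lower, and Slc1a3 and Slc6a6 were higher. Of 40 rows tested, 2 were higher and 10 lower, where 16% of all 19293 genes tested were higher and 17.7% lower (edgeR). Among the 26 expressed rows the counts were the same, against 21.9% higher and 23.2% lower of genes at 1 CPM or more, and the median log2 fold change was -0.11 against 0.00.

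Slc6a8 was at 65.7 to 126 CPM in A0 and 36.4 to 39.3 CPM in A1 at stationary phase, a log2 fold change of -1.37 ± 0.19 (adjusted p = 7.3e-05). Slc38a4 was at 12.8, 14.7, 8.26 and 10.04 CPM in A0 cultures 1 to 4 and 3.46 to 6.26 CPM in A1 (-1.35 ± 0.23, adjusted p = 0.00046). Slc3a2 was at 634 to 737 CPM in A0 and 408 to 413 CPM in A1 (-0.71 ± 0.07, adjusted p = 3.2e-06). In each case the lowest A0 culture was above the highest A1 culture. Slc1a5 had -0.68 ± 0.07 (adjusted p = 5.1e-06), Slc7a1 -0.53 ± 0.08 (adjusted p = 0.00016) and Slc38a7 -0.52 ± 0.09 (adjusted p = 0.00052). Slc1a3 was at 12.2 to 15.4 CPM in A0 and 24.6 to 29.0 CPM in A1 (1.03 ± 0.12, adjusted p = 1.4e-05), and Slc6a6 was at 190 to 221 CPM in A0 and 263 to 298 CPM in A1 (0.43 ± 0.07, adjusted p = 0.00047). Slc1a3, Slc6a6, Slc38a7, Slc7a1 and Slc7a6os were therefore called in the same direction at both phases. The exponential calls of Slc7a1 and Slc7a6os were each lost without a single A1 culture.

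For the exchanger Slc7a11 the line difference at stationary phase rested on the choice of A0 cultures. A0 cultures 1 and 2, at 99.9 and 116 CPM, lay within or just below the 106 to 116 CPM of A1, and cultures 3 and 4, at 198 and 212 CPM, lay above it. The log2 fold change was -0.50 ± 0.20 (adjusted p = 0.078) over all cultures, -0.66 (adjusted p = 0.0060) without A0 culture 1, -0.61 (adjusted p = 0.026) without A0 culture 2 and -0.88 (adjusted p = 1.5e-07) against A0 cultures 3 and 4 alone. Slc1a4 had -0.64 ± 0.19 (adjusted p = 0.018), which became -0.16 (adjusted p = 0.12) against A0 cultures 1 and 2 alone and was lost without any of A1 cultures 1, 2 or 3 (-0.65 to -0.64, adjusted p = 0.067 to 0.083). Slc7a5 had -0.28 ± 0.08 (adjusted p = 0.014) and was lost without A1 culture 3 (-0.21, adjusted p = 0.097). Slc6a15 had -0.34 ± 0.12 (adjusted p = 0.038) and was lost without A0 culture 3 or 4 or any of A1 cultures 1, 2 or 3 (-0.36 to -0.25, adjusted p = 0.069 to 0.14). With all 6 groups in 1 fit, Slc7a5 and Slc6a15 did not pass (adjusted p = 0.21 and 0.17). Slc6a9, which was higher in A1 at exponential phase, was at 28.9 to 30.6 CPM in A0 and 33.5 to 36.7 CPM in A1 (0.22 ± 0.09, adjusted p = 0.065, or 0.035 with the filterByExpr gene filter).

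**Figure D3:**
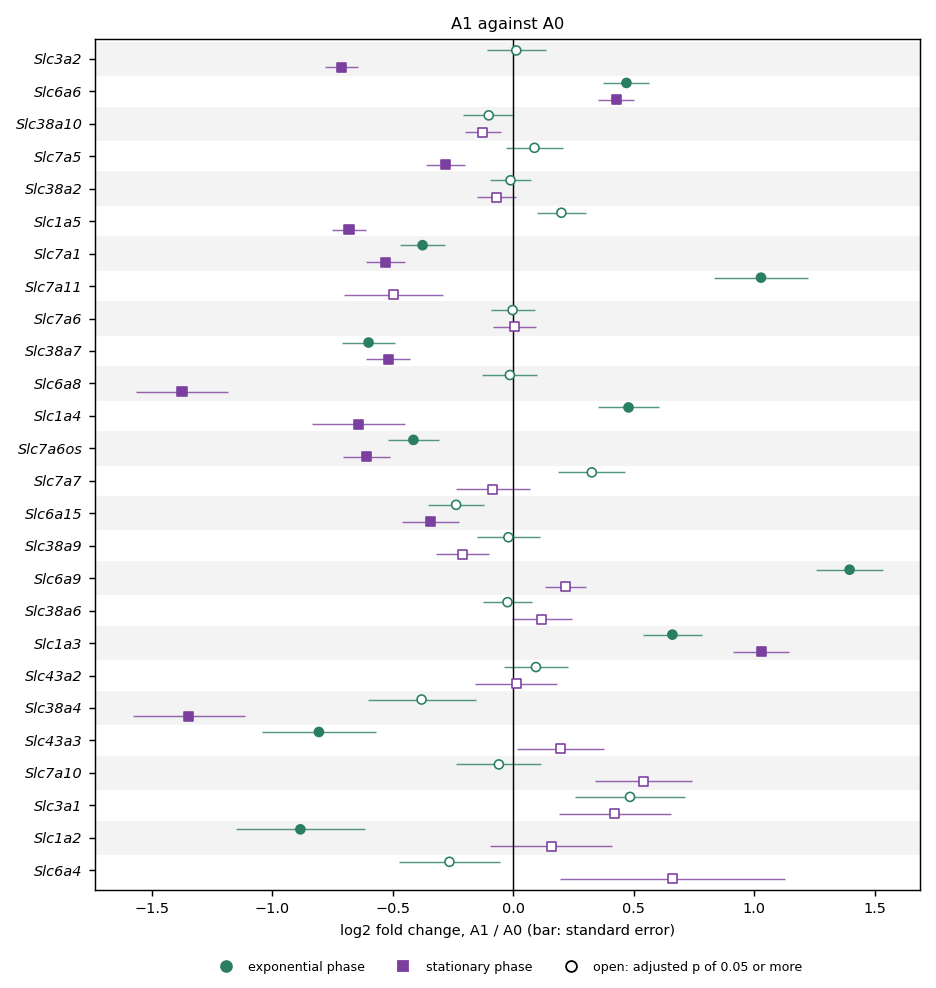
Log2 fold change of A1 over A0 for the 26 expressed rows at exponential and at stationary phase, with standard errors; filled symbols passed an adjusted p of 0.05. Slc6a9 and Slc7a11 lie to the right at exponential phase, Slc6a8, Slc38a4, Slc3a2 and Slc1a5 lie to the left at stationary phase, and Slc1a3 and Slc6a6 lie to the right at both.

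CHO-S, which makes no antibody, showed another phase pattern. With all cultures, Slc43a3 and Slc1a4 were higher and Slc7a5 and Slc1a5 lower at stationary phase. Of 36 rows tested, 2 rose and 2 fell, where 6.81% of all 17367 genes tested rose and 6.48% fell (edgeR). Without stationary culture 1, the one that stood apart, 8 rose and 11 fell, where 23.1% of the genes rose and 24.7% fell. Leaving out any other culture instead left 0 or 1 of the rows past the threshold, where 0% to 2.06% of the genes rose and 0% to 1.30% fell. Over the 26 expressed rows the median log2 fold change was -0.14 with all cultures and -0.10 without that culture.

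Slc7a5 was at 182, 194 and 192 CPM in exponential CHO-S cultures 1 to 3 and at 56.8, 111 and 110 CPM in stationary cultures 1 to 3. The log2 fold change was -0.995 ± 0.235 (adjusted p = 0.033) with all cultures and -0.77 ± 0.05 (adjusted p = 1.6e-24) without stationary culture 1. Slc1a5 was at 49.9, 56.1 and 53.6 CPM and then at 7.22, 29.1 and 27.4 CPM, a log2 fold change of -1.13 ± 0.30 (adjusted p = 0.049) and of -0.90 ± 0.08 (adjusted p = 5.2e-18) without stationary culture 1. Both fell in CHO-S where they rose in A0 and A1, with or without that culture. With it kept, leaving out any other culture lost both calls (adjusted p of 0.085 to 0.15 for Slc7a5 and 0.12 to 0.20 for Slc1a5). Slc3a2 was at 182, 212 and 197 CPM and then at 104, 187 and 184 CPM, a log2 fold change of -0.29 ± 0.22, or -0.08 ± 0.05 without stationary culture 1, so it was not shown to change.

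Slc7a1 was at 74.7, 76.7 and 81.6 CPM in exponential CHO-S and at 26.8, 65.7 and 59.3 CPM in stationary CHO-S (-0.54 ± 0.27, adjusted p = 0.22; -0.30 ± 0.06, adjusted p = 2.6e-05 without stationary culture 1). Slc38a2 was at 197, 202 and 186 CPM and then at 129, 144 and 157 CPM (-0.43 ± 0.13, adjusted p = 0.068, and -0.38 ± 0.05, adjusted p = 3.0e-10 without that culture). Both were lower in every stationary culture. Slc7a11 was at 48.4, 54.8 and 45.0 CPM and then at 77.4, 37.9 and 37.0 CPM. Stationary culture 1 was thus the highest CHO-S culture for Slc7a11, and without it the log2 fold change went from -0.06 ± 0.28 to -0.39 ± 0.08 (adjusted p = 7.5e-06).

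Some carriers rose in CHO-S. Slc1a4 was at 18.5, 17.2 and 18.7 CPM in exponential and 15.5, 36.4 and 38.5 CPM in stationary CHO-S (0.90 ± 0.21, adjusted p = 0.033, and 1.04 ± 0.09, adjusted p = 1.5e-18 without stationary culture 1). Slc6a8 was at 18.6 to 19.6 CPM and then at 14.4, 32.4 and 35.5 CPM (0.68 ± 0.20, adjusted p = 0.066, and 0.80 ± 0.09, adjusted p = 3.9e-13). For both, stationary culture 1 lay below the exponential cultures and the other cultures above them. Slc6a9 was at 18.2, 17.5 and 16.8 CPM and then at 2.06, 23.2 and 23.4 CPM (0.25 ± 0.30, adjusted p = 0.62, and 0.41 ± 0.10, adjusted p = 0.00021), where 2.06 CPM is 2 reads. Slc43a3 was at 3.04 to 3.36 CPM and then at 8.26, 7.99 and 6.50 CPM (1.23 ± 0.16, adjusted p = 0.0050, and 1.23 ± 0.18, adjusted p = 1.2e-08), so this nucleobase carrier rose with or without the culture, although leaving out exponential culture 2 or 3 or stationary culture 2 instead lost the call (1.11 to 1.22, adjusted p = 0.050 to 0.064). Slc1a4 likewise did not pass on leaving out any culture other than stationary culture 1 (0.71 to 0.87, adjusted p = 0.19 to 0.23).

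Slc6a6 was at 413, 438 and 424 CPM in exponential and 364, 363 and 389 CPM in stationary CHO-S, without overlap. Slc7a6 was at 87.8, 99.9 and 92.9 CPM and then at 52.6, 75.6 and 76.3 CPM, also without overlap. Slc43a2 was at 40.3, 46.2 and 39.3 CPM and then at 22.7, 37.0 and 34.0 CPM, with culture 1 the lowest.

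Of the remaining carriers, Slc6a6 (-0.18, adjusted p = 0.00034), Slc7a6 (-0.30, adjusted p = 1.0e-05), Slc38a7 (-0.31, adjusted p = 0.00023), Slc1a3 (-0.40, adjusted p = 0.0010), Slc43a2 (-0.22, adjusted p = 0.015) and Slc6a15 (-0.51, adjusted p = 1.0e-05) fell, and Slc7a7 (0.39, adjusted p = 1.8e-07) and Slc7a6os (0.44, adjusted p = 1.9e-08) rose, only without stationary culture 1 (edgeR). Slc6a4 stayed at 1.03 to 1.76 CPM, Slc38a9 at 15.6, 16.2 and 17.1 CPM and then 18.6, 16.9 and 13.3 CPM, and Slc38a4 at 2.07 to 3.93 CPM, with no call either way. Slc38a10, which fell in A0 and A1, was at 151 to 156 CPM in exponential CHO-S and at 54.7, 165 and 166 CPM in stationary CHO-S, with no call with or without culture 1.

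The phase responses of A0 and CHO-S were then compared as an interaction, where a positive value means a larger rise or smaller fall in A0. Of 42 rows tested, 8 were positive and 2 negative, where 3.78% of all 20871 genes tested were positive and 6.57% negative (edgeR). Without CHO-S stationary culture 1 there were 11 and 3, where 8.43% and 8.75% of genes passed. Slc1a5 had the largest, 2.28 ± 0.28 (adjusted p = 1.9e-05), followed by Slc6a9 with 1.93 ± 0.32 (adjusted p = 0.00057), Slc7a11 with 1.88 ± 0.41 (adjusted p = 0.0055), Slc3a2 with 1.75 ± 0.25 (adjusted p = 0.00014) and Slc7a5 with 1.74 ± 0.26 (adjusted p = 0.00017). Slc7a1 had 1.29 ± 0.25 (adjusted p = 0.0019). Without CHO-S stationary culture 1 these 6 values were 2.15, 1.79, 2.22, 1.61, 1.61 and 1.15, in the same order, and all passed. Slc6a4 had -2.96 ± 0.54 (adjusted p = 0.0011), or -2.92 without it, with a fall in A0 and no call in CHO-S.

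The other 3 calls were less stable. Slc38a2 had 0.63 ± 0.17 (adjusted p = 0.021) and was lost without A0 stationary culture 1 (0.58, adjusted p = 0.051) or CHO-S exponential culture 1 or 2 (0.63 and 0.61, adjusted p = 0.057 and 0.068). Slc38a4 had 1.32 ± 0.38 (adjusted p = 0.032) and was lost without A0 exponential culture 3, A0 stationary culture 1, CHO-S exponential culture 2 or 3 or CHO-S stationary culture 2 (1.01 to 1.32, adjusted p = 0.053 to 0.16). Without CHO-S stationary culture 1 these values were 0.63 (adjusted p = 0.0015) and 1.40 (adjusted p = 0.013). Slc43a3 had -1.03 ± 0.31 (adjusted p = 0.040), or -0.94 (adjusted p = 0.037) without CHO-S stationary culture 1, and was lost on leaving out A0 exponential culture 3 or 4, A0 stationary culture 1, 2 or 4, any CHO-S exponential culture or CHO-S stationary culture 2 or 3 (-1.08 to -0.86, adjusted p = 0.055 to 0.17). Slc6a8 had 0.93 ± 0.31 (adjusted p = 0.065), and passed by DESeq2 (1.01, adjusted p = 0.026), without A0 stationary culture 4 (1.08, adjusted p = 0.022), CHO-S stationary culture 1 (0.85, adjusted p = 0.031) or CHO-S stationary culture 3 (1.15, adjusted p = 0.042). Slc1a4, which rose in both lines, had 0.86 ± 0.33 (adjusted p = 0.11), 0.77 (adjusted p = 0.060) without CHO-S stationary culture 1, 0.94 (adjusted p = 0.049) by DESeq2 and 1.05 (adjusted p = 0.038) without A0 stationary culture 2.

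In the same comparison of A1 with CHO-S, which uses the same CHO-S cultures, 6 of 40 rows tested were positive and 1 negative, where 3.83% and 3.77% of all 19662 genes tested passed (edgeR). Without CHO-S stationary culture 2 there were 4 in all, where 2.24% and 2.25% of genes passed. Without CHO-S stationary culture 1 there were 10 and 6, where 13% and 12.4% of genes passed. Slc1a5 had 1.42 ± 0.26 (adjusted p = 0.0048), Slc7a5 1.42 ± 0.24 (adjusted p = 0.0026), Slc7a1 1.16 ± 0.24 (adjusted p = 0.010) and Slc3a2 1.07 ± 0.23 (adjusted p = 0.011). Without that culture they were 1.24, 1.21, 0.96 and 0.86, and all passed. Slc6a4 had -1.97 ± 0.44 (adjusted p = 0.015), and was lost without CHO-S stationary culture 2 or 3 (-2.12 and -1.82, adjusted p = 0.051 and 0.056), with -2.01 without CHO-S stationary culture 1. Slc38a2 had 0.61 ± 0.15 (adjusted p = 0.023) and was lost without A1 exponential culture 1 or 3, A1 stationary culture 2, any CHO-S exponential culture or CHO-S stationary culture 2 (adjusted p = 0.050 to 0.071). Slc1a2 had 1.17 ± 0.31 (adjusted p = 0.034) and was lost without any A1 exponential culture, A1 stationary culture 2 or 3, CHO-S exponential culture 1 or 3 or CHO-S stationary culture 2 (adjusted p = 0.057 to 0.12) and by DESeq2 (1.14, adjusted p = 0.057). Without CHO-S stationary culture 1 they were 0.55 (adjusted p = 1.7e-07) and 1.13 (adjusted p = 0.016). Slc7a11 had 0.43 ± 0.27 (adjusted p = 0.40), and 0.67 ± 0.10 (adjusted p = 2.5e-07) without CHO-S stationary culture 1. Slc6a8 had -0.43 ± 0.19, and -0.54 ± 0.13 (adjusted p = 0.00055) without it, the opposite sign to its value in A0.

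Levels in the producing lines were compared with CHO-S within each phase. At exponential phase the large differences were Slc43a2, Slc7a6, Slc7a7, Slc1a2 and Slc7a6os, all lower in A0 and A1, and Slc38a10 and Slc6a4, higher in both. In A0, 14 of 38 rows tested were higher and 7 lower than in CHO-S, where 27.6% of all 19966 genes tested were higher and 21.9% lower (edgeR). In A1, 13 of 38 were higher and 9 lower, where 30% of all 18488 genes tested were higher and 27.1% lower. Among the 26 expressed rows, 11 were higher and 7 lower in A0, against 34.4% and 30.5% of genes at 1 CPM or more. In A1 they were 12 and 8, against 37% and 36%. These shares are the background for the counts of transporters, since the lines differed in a large part of all genes.

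Slc43a2 was at 40.3, 46.2 and 39.3 CPM in exponential CHO-S, against 8.47 to 10.1 CPM in A0 and 9.30 to 10.4 CPM in A1. Its log2 fold change to CHO-S was -2.18 ± 0.11 in A0 (adjusted p = 7.2e-10) and -2.10 ± 0.09 in A1 (adjusted p = 3.2e-15). Slc7a6 was at 87.8, 99.9 and 92.9 CPM in CHO-S, with -1.23 ± 0.08 in A0 (adjusted p = 2.1e-08) and -1.25 ± 0.06 in A1 (adjusted p = 4.9e-14). The related light chain Slc7a7 was at 51.7 to 54.3 CPM in CHO-S, with -1.45 ± 0.10 in A0 (adjusted p = 2.7e-08) and -1.13 ± 0.09 in A1 (adjusted p = 3.0e-10). These carriers of leucine-type and cationic amino acids were thus each more than 2-fold lower in both producing lines. Slc1a2 was at 4.51 to 5.43 CPM in CHO-S, with -1.53 ± 0.18 in A0 (adjusted p = 6.6e-06) and -2.43 ± 0.23 in A1 (adjusted p = 3.1e-09). Slc7a6os was at 42.4 to 47.8 CPM in CHO-S, with -1.002 ± 0.09 in A0 (adjusted p = 4.2e-07) and -1.43 ± 0.08 in A1 (adjusted p = 1.6e-13).

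Slc38a10 was at 151 to 156 CPM in exponential CHO-S, 372 to 506 CPM in A0 and 387 to 414 CPM in A1, and its log2 fold change was 1.48 ± 0.11 in A0 (adjusted p = 4.0e-08) and 1.37 ± 0.04 in A1 (adjusted p = 1.2e-17). Slc6a4 was at 1.09 to 1.67 CPM in CHO-S, with 1.78 ± 0.23 in A0 (adjusted p = 1.2e-05) and 1.49 ± 0.25 in A1 (adjusted p = 2.0e-05). Slc7a10 was at 2.34 to 3.42 CPM, with 0.77 ± 0.20 in A0 (adjusted p = 0.0045) and 0.69 ± 0.19 in A1 (adjusted p = 0.0032). Slc1a5 was moderately higher, by 0.60 ± 0.10 in A0 (adjusted p = 0.00018) and 0.78 ± 0.06 in A1 (adjusted p = 1.6e-10), as was Slc38a2, by 0.38 ± 0.08 (adjusted p = 0.0014) and 0.36 ± 0.05 (adjusted p = 3.1e-07). Some carriers did not go together in A0 and A1. Slc6a9 was lower than CHO-S in A0 (-1.38 ± 0.12, adjusted p = 3.4e-07) and within its error of CHO-S in A1 (0.00 ± 0.10), and Slc7a11 was higher in A1 (0.90 ± 0.06, adjusted p = 2.0e-11) but not in A0 (-0.11 ± 0.21).

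At stationary phase Slc1a5, Slc7a5, Slc3a2, Slc38a2, Slc7a1, Slc7a11, Slc38a10 and Slc38a9 lay above CHO-S in both A0 and A1. Slc43a2, Slc1a2, Slc7a6, Slc7a7, Slc7a6os and Slc6a6 lay below it in both. Log2 fold changes in A0 and A1 were 1.43 and 0.91 for Slc7a1, and 1.69 and 1.21 for Slc7a11. All these calls held without CHO-S culture 1. Those of Slc7a1, Slc7a11, Slc38a10, Slc38a9, Slc7a7 and Slc6a6 in A1 were each lost on leaving out some other single culture. In A0, 12 of 37 rows tested were higher and 6 lower than in CHO-S, where 20.7% of all 19007 genes tested were higher and 19.3% lower (edgeR), and without CHO-S culture 1 there were 16 and 6, where 28% and 23.8% of genes passed. In A1, 10 of 39 were higher and 6 lower, where 18.2% of all 18243 genes tested were higher and 16.6% lower, and without that culture 17 and 6, where 29.9% and 27.5% passed. Leaving out any other culture instead left 9 or 10 rows past the threshold in A1, where 11.1% to 13% of genes were higher and 10.9% to 12.9% lower. Among the 26 expressed rows, with all cultures, 11 were higher and 6 lower in A0, against 24.5% and 24.8% of genes at 1 CPM or more. In A1 they were 9 and 6, against 21.7% and 20.7%. Slc1a5 was at 178 to 192 CPM in A0, 114 to 120 CPM in A1 and 7.22, 29.1 and 27.4 CPM in CHO-S. Its log2 fold change was 2.94 ± 0.30 in A0 (adjusted p = 3.7e-05) and 2.27 ± 0.33 in A1 (adjusted p = 0.0011), and 2.72 ± 0.10 and 2.01 ± 0.09 without CHO-S culture 1. Slc7a5 had 2.11 ± 0.23 in A0 (adjusted p = 5.2e-05) and 1.83 ± 0.24 in A1 (adjusted p = 0.00075), and 1.92 and 1.60 without that culture. Slc3a2 had 2.04 ± 0.21 in A0 (adjusted p = 3.8e-05) and 1.34 ± 0.22 in A1 (adjusted p = 0.0021), and 1.86 and 1.12 without it.

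Slc38a2 was 1.01 ± 0.15 higher on the log2 scale in stationary A0 (adjusted p = 0.00037) and 0.95 ± 0.15 higher in A1 (adjusted p = 0.0018) than in CHO-S, with 0.98 and 0.89 without CHO-S culture 1. Slc43a2 remained lower, by -2.31 ± 0.19 in A0 (adjusted p = 7.8e-06) and -2.29 ± 0.18 in A1 (adjusted p = 5.5e-05), with -2.39 and -2.42 without that culture. Slc1a2 had -1.44 ± 0.26 (adjusted p = 0.0013) and -1.27 ± 0.24 (adjusted p = 0.0044), with -1.47 and -1.32 without it. The difference in Slc43a2 and in Slc1a2 was thus present at both phases. Slc7a6os had -1.61 ± 0.25 (adjusted p = 0.00060) and -2.21 ± 0.30 (adjusted p = 0.00091), with -1.18 and -1.82 without CHO-S culture 1, which had 132 CPM against 61.2 and 63.5 CPM in cultures 2 and 3. Slc7a6 had -0.79 ± 0.16 in A0 (adjusted p = 0.0028) and -0.78 ± 0.18 in A1 (adjusted p = 0.011), with -0.89 and -0.90 without CHO-S culture 1, and the A1 call was lost without A1 culture 1 or 3 (-0.72 and -0.76, adjusted p = 0.060 and 0.059) or CHO-S culture 2 (-0.71, adjusted p = 0.050).

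**Figure D4:**
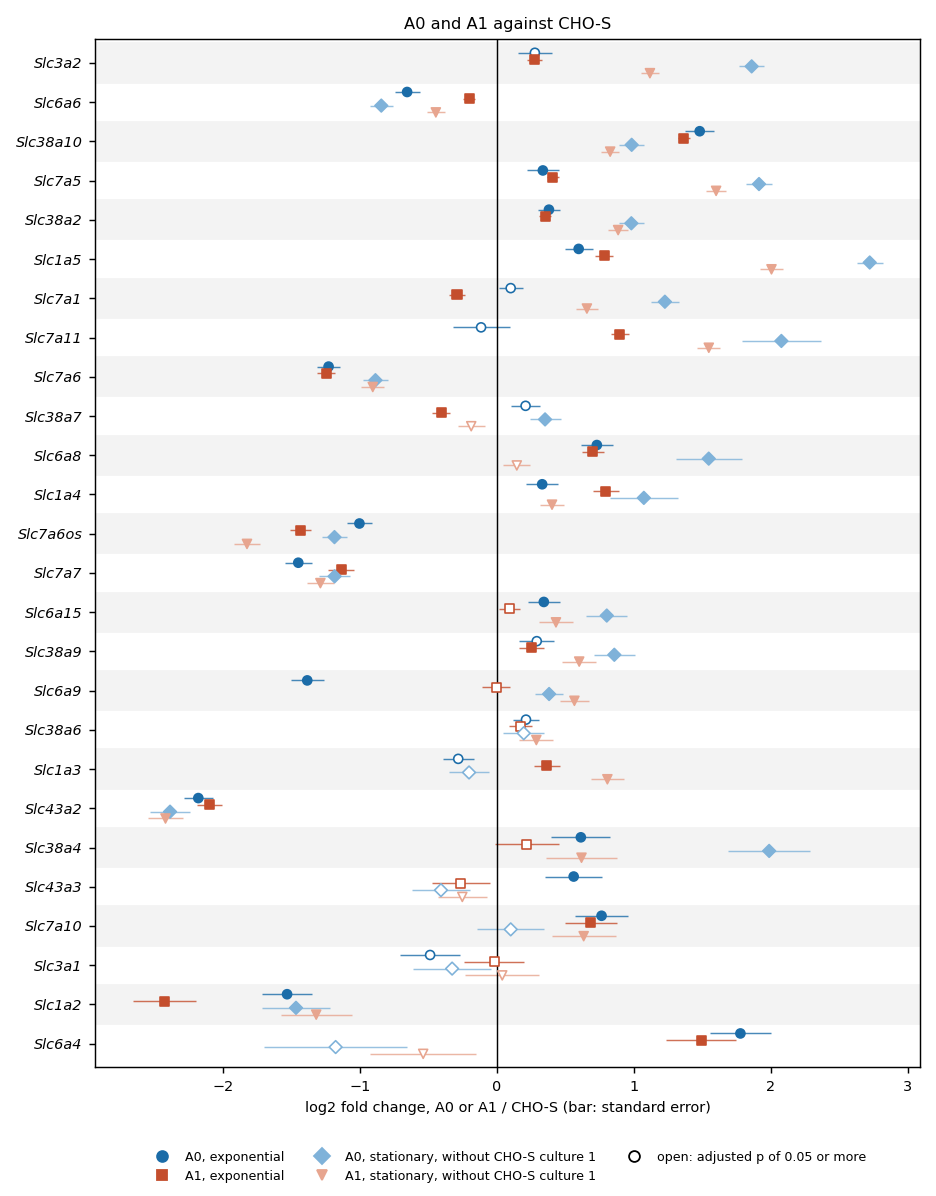
Log2 fold change of A0 and of A1 over CHO-S for the 26 expressed rows at exponential phase, and at stationary phase without CHO-S stationary culture 1, with standard errors; filled symbols passed an adjusted p of 0.05. Slc43a2, Slc7a6 and Slc1a2 lie to the left in all 4 comparisons, Slc38a10 lies to the right in all 4, and Slc1a5, Slc7a5 and Slc3a2 lie farther right at stationary than at exponential phase.

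The 30 rows under 1 CPM had means of at most 0.535 CPM. The only proton coupled carriers among the rows, Slc36a2, Slc36a3 and Slc36a4, were all in this set. Of the system A carriers, Slc38a1 had 0 to 7 reads a culture and only in A0, and of the facilitators Slc43a1 had 2 reads in all. The cationic carrier Slc7a2, the proline carrier Slc6a7, the neutral carriers Slc6a18 and Slc6a19, the GABA carrier Slc6a11 and the glutamate carrier Slc1a6 had no read in any culture, where a count of 0 allows up to 0.113 CPM in the deepest and 2.89 CPM in the shallowest culture (3 counts, for counting error only). A few low rows passed the threshold. Slc6a5, a glycine carrier, averaged 0.262 CPM in exponential and 0.887 CPM in stationary A0 (1.71, adjusted p = 0.0011), and 0.245 and 0.801 CPM in A1 (1.72, adjusted p = 0.013), on at most 12 reads a culture. Rows this low can pass the filter on counts through the group where they are high alone, although Slc6a5 had reads at both phases. Their calls rest on few reads and are part of the counts over all rows given above, such as 15 rises in A0 against 11 among the expressed rows.

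Genes that respond to amino acid shortage through Atf4 were taken as a list of 24, of which 22 were in the table. In A0, 17 of 22 rose and 0 fell at stationary phase by edgeR, with a median log2 fold change of 1.26. The counts were also 17 and 0 at an unadjusted p under 0.05 and by DESeq2. In A1, 15 of 20 tested rose and 1 fell, with a median of 1.06. In CHO-S, 3 of 22 rose and 4 fell with all cultures, with a median of -0.06, and 6 rose and 9 fell without stationary culture 1. Over all genes tested, 17.7% rose and 20.1% fell in A0, 15.6% and 17.8% in A1, and 6.81% and 6.48% in CHO-S (23.1% and 24.7% without stationary culture 1).

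Atf4 itself averaged 304.5 CPM in exponential and 757 CPM in stationary A0 (log2 fold change 1.30 ± 0.16, adjusted p = 1.0e-05), 307 and 682 CPM in A1 (1.17 ± 0.06, adjusted p = 2.1e-16), and 239 and 231 CPM in CHO-S (-0.05 ± 0.13, or -0.11 without stationary culture 1, adjusted p = 0.042). Asparagine synthetase Asns rose by 1.34 ± 0.25 on the log2 scale in A0 (adjusted p = 0.00042) and 1.00 ± 0.07 in A1 (adjusted p = 5.4e-13), with -0.07 ± 0.18 in CHO-S, or 0.07 without stationary culture 1. The pseudokinase Trib3 rose by 3.84 ± 0.14 on that scale in A0 (adjusted p = 7.5e-11) and 2.28 ± 0.07 in A1 (adjusted p = 7.5e-20). In CHO-S, Trib3 was at 20.9 to 22.9 CPM in exponential culture and at 15.5, 44.7 and 43.5 CPM in stationary cultures 1 to 3. Atf4, Asns and Trib3 thus rose in the lines in which Slc3a2, Slc7a5 and Slc1a5 rose. Trib3 was also higher in CHO-S stationary cultures 2 and 3 than in the exponential ones. In CHO-S Ddit3, a stress-induced transcription factor, rose (2.49 ± 0.32, adjusted p = 0.0046; 2.07 without stationary culture 1) as did Atf3 (2.53 ± 0.16, adjusted p = 0.0015; 2.52 without it). The serine and glycine enzymes went the other way there: Psat1 fell by 1.06 ± 0.26 (adjusted p = 0.037) and Shmt2 by 1.14 ± 0.29 (adjusted p = 0.042), with -0.83 and -0.86 without stationary culture 1. Without exponential culture 2 the calls of Ddit3 (2.47, adjusted p = 0.056) and Atf3 (2.51, adjusted p = 0.051) were lost, and those of Psat1 and Shmt2 were lost on leaving out any culture other than stationary culture 1 (adjusted p = 0.077 to 0.16).

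The list also differed between A0 and A1. At stationary phase 3 of 20 genes were higher and 11 lower in A1, where 16% of all genes tested were higher and 17.7% lower (edgeR). Ddit3 differed by -0.64 ± 0.12 on the log2 scale (adjusted p = 0.0012), Asns by -0.60 ± 0.08 (adjusted p = 7.6e-05) and Eif4ebp1, an inhibitor of translation initiation, by -0.99 ± 0.07 (adjusted p = 2.4e-07). Atf5 was the opposite, 1.15 ± 0.09 higher in A1 (adjusted p = 6.4e-07). For the interaction of phase and line, 0 of 22 were positive and 5 negative by edgeR (0 and 6 at an unadjusted p under 0.05, and 0 and 5 by DESeq2), which became 2 and 5 with A0 cultures 1 and 2 alone and 0 and 14 with A0 cultures 3 and 4 alone. Over all genes tested 5.04% were positive and 3.90% negative by edgeR with all cultures. These shares were 12% and 10.7% with A0 cultures 1 and 2 alone, and 5.09% and 3.96% with cultures 3 and 4 alone. The largest was Sesn2, a leucine sensor upstream of mTORC1, with -2.86 ± 0.17 (adjusted p = 5.1e-10). Sesn2 averaged 9.89 CPM in exponential and 78.7 CPM in stationary A0, and 46.7 and 51.8 CPM in A1, so in A1 it was high at both phases. The group means of Slc7a11 had the same order, although its difference between A1 and A0 at stationary phase did not pass the threshold with all cultures.

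**Figure D5:**
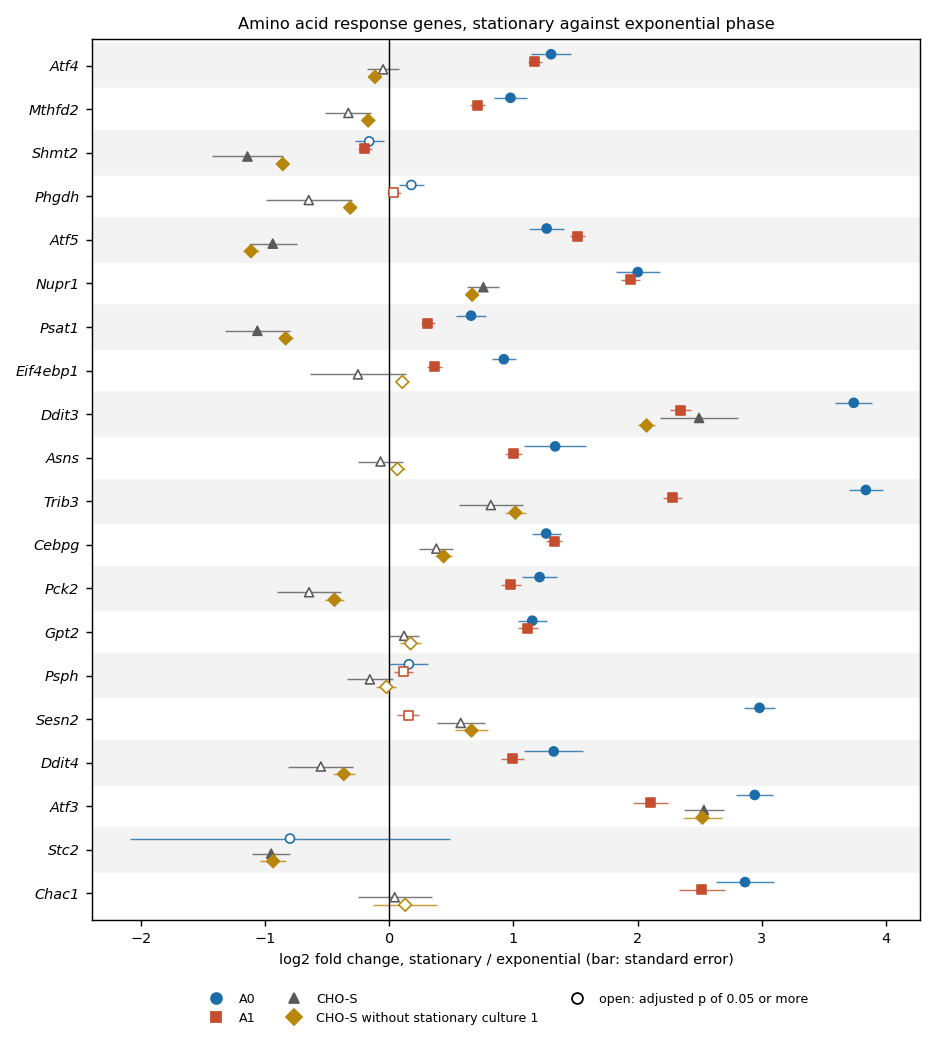
Log2 fold change of stationary over exponential phase for the 20 listed amino acid response genes with a mean of 1 CPM or more, ordered by mean level, in A0, A1 and CHO-S, the last also without stationary culture 1. Bars are standard errors and filled symbols passed an adjusted p of 0.05; Atf4, Asns, Trib3, Chac1 and Pck2 lie right of 0 in A0 and A1, and Shmt2, Psat1 and Atf5 lie left of 0 in CHO-S.

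Carriers outside these families, most of them in membranes inside the cell and not all specific to amino acids, were taken as a list of 19. Of these, 18 were in the table. In A0, 3 of 16 tested rose and 7 fell at stationary phase, in A1 2 rose and 6 fell, and in CHO-S 0 rose and 2 fell with all cultures (0 and 3 at an unadjusted p under 0.05, and 0 and 2 by DESeq2) and 2 rose and 6 fell without stationary culture 1 (edgeR). The shares over all genes tested were 17.7% risen and 20.1% fallen in A0, and 15.6% and 17.8% in A1. In CHO-S they were 6.81% and 6.48%, or 23.1% and 24.7% without stationary culture 1. The mitochondrial aspartate and glutamate carrier Slc25a12 averaged 83.3 CPM in exponential and 29.9 CPM in stationary A0 (log2 fold change -1.49 ± 0.10, adjusted p = 1.8e-08), 63.8 and 37.2 CPM in A1 (-0.76 ± 0.08, adjusted p = 5.0e-09) and 72.6 and 47.8 CPM in CHO-S (-0.56 ± 0.15, adjusted p = 0.049; -0.46 without stationary culture 1, and lost on leaving out any other culture, with an adjusted p of 0.12 to 0.19). Its paralogue Slc25a13 had -0.65 ± 0.09 in A0 (adjusted p = 1.9e-05) and -0.48 ± 0.07 in A1 (adjusted p = 1.4e-06). The mitochondrial serine carrier Sfxn1 had -0.61 ± 0.12 (adjusted p = 0.00061) and -0.30 ± 0.06 (adjusted p = 0.00013). The carrier Slc25a39 differed from these, with a rise of 0.50 ± 0.11 on the log2 scale in A0 (adjusted p = 0.0023) and a difference of 0.12 ± 0.06 in A1 that did not pass (adjusted p = 0.11). The lysosomal carrier Slc17a5 rose, by 0.97 ± 0.15 in A0 (adjusted p = 6.6e-05) and 0.62 ± 0.10 in A1 (adjusted p = 4.4e-06).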

How the data were processed

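Whole-number read counts per gene were deposited by the authors for 24 libraries (stranded poly(A) RNA-seq, reads aligned with STAR 2.5.4b to the C_griseus_v1.0 genome and counted with HTSeq 0.7.2). The paper states that unmapped reads were removed from the sequencing data, whereas the counts still list 2.31% to 11.5% of reads per library as not aligned. The strand setting of the counting is not given in the sources used here, so Slc7a6 and the opposite-strand gene Slc7a6os may share reads, although their spans do not overlap in the RefSeq assembly CriGri-PICRH-1.0. The 5 HTSeq summary lines were left out. Libraries were grouped by the labels into 6 groups of 20 cultures. The 2 libraries of each exponential A0 culture were summed, since they came from the same culture but differed by more than sampling noise (chi-square per degree of freedom 2.74 to 26.8). Labels do not tie cultures to separate inocula, so p-values measure the spread between these cultures, which may be technical.

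Counts were fitted with edgeR 4.0.16 (R 4.3.3; TMM normalization, quasi-likelihood test, two-sided, Benjamini-Hochberg adjustment over all genes tested, threshold 0.05), on genes that had 1 count or more in 2 or more cultures. Each comparison used its own groups, and interactions used 4 groups. Levels are TMM-normalized CPM over all 20 cultures. The scripts were tested on simulated data. Alternatives were DESeq2 1.42.0, its size factors in edgeR, filterByExpr, all 6 groups in 1 fit, a replicate block, 1 library per exponential A0 culture, CPM without TMM, other CPM minima for expressed rows and each culture left out. After the data were seen, A0 cultures 1 and 2 alone and 3 and 4 alone were added, and the gene lists were counted without CHO-S stationary culture 1. For phase in A0, deviations of same-numbered cultures from their group means correlated at 0.44, 0.32, 0.27 and 0.19. Cultures with different numbers were not compared, so pairing by number cannot be told apart from the split of cultures 1 and 2 from 3 and 4. In no other comparison did every pair exceed 0.1.

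Members and lists were chosen with earlier results of these data known. Values by culture, or their ranges, were given for members of known role (Slc1a4, Slc1a5, Slc3a2, Slc7a1, Slc7a5, Slc7a6, Slc7a11, Slc6a6, Slc6a9, Slc38a2, Slc38a9 and Slc43a2) and, in each comparison, for the 3 largest rises and falls among called members with no overlap between groups. Slc36a1 has no row and was not analysed here, nor were Slc25a2, Cebpb and Vldlr of the lists. Slc66a1 and Slc66a4 were found under their older symbols Pqlc2 and Pqlc3. No sequences were used here. Some items are not reported here.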

Additional observations from a re-analysis of the deposited data

Results flagged for a closer look

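Of the tests of a difference between the phase responses of the lines, those of 13 expressed transporters passed the threshold in at least 1 pair of lines (edgeR, adjusted p under 0.05). Between A1 and A0, the interaction was -1.52 for Slc7a11, -1.36 for Slc6a8, -1.18 for Slc6a9, -1.12 for Slc1a4, -0.88 for Slc1a5, -0.72 for Slc3a2 and 1.00 for Slc43a3, where a negative value is a smaller rise in A1. Between A0 and CHO-S it was 2.28 for Slc1a5, 1.93 for Slc6a9, 1.88 for Slc7a11, 1.75 for Slc3a2, 1.74 for Slc7a5, 1.32 for Slc38a4, 1.29 for Slc7a1, 0.63 for Slc38a2, -1.03 for Slc43a3 and -2.96 for Slc6a4. Between A1 and CHO-S it was 1.42 for both Slc7a5 and Slc1a5, 1.17 for Slc1a2, 1.16 for Slc7a1, 1.07 for Slc3a2, 0.61 for Slc38a2 and -1.97 for Slc6a4. The last 2 comparisons share the CHO-S cultures.

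In stationary A0, culture 4 was far from the other cultures for Slc1a3, with a gap of 0.833 of the range to the nearest other culture. It was the only one of 52 groups of 4 cultures with such a gap, and chance gives about 2.6.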

How the results depend on the processing

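The counts of transporters past the threshold stayed within 1.5 times the value reported in 7 of the 12 comparisons under every alternative run. With all 6 groups in 1 fit, the count was 10 in place of 18 for phase in A1, 10 in place of 4 for phase in CHO-S and 7 in place of 11 for A1 against A0 at exponential phase. When single cultures were left out, it ranged from 0 (without exponential or stationary culture 2, with 7 and 11 at an unadjusted p under 0.05) to 19 (without stationary culture 1) for phase in CHO-S, from 6 (without A1 culture 3) to 11 for A1 against A0 at exponential phase, from 9 (without A1 culture 1 or 3) to 23 (without CHO-S culture 1) in place of 16 for A1 against CHO-S at stationary phase, and from 4 (without CHO-S stationary culture 2) to 16 (without CHO-S stationary culture 1) in place of 7 for the interaction of A1 and CHO-S.

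For phase in A0, where same-numbered cultures correlated in every pair, the replicate block gave 21 in place of 20. For the interaction of A1 and A0 it gave 10 in place of 7. For phase in CHO-S, where same-numbered cultures correlated at -0.01 to 0.12, the replicate block gave 0 by edgeR (10 at an unadjusted p under 0.05). DESeq2 without the block gave 6. Of the called expressed transporters, none changed sign under any alternative. Slc3a2 in A1 against A0 at exponential phase, not called at 0.01, was at -0.18 against A0 cultures 1 and 2 alone (adjusted p = 0.041 by edgeR), and the cause was not tested. DESeq2 moved the median over all genes by more than 0.1 on the log2 scale for the interactions with CHO-S, from -0.032 to -0.152 for A0 and from 0.028 to -0.11 for A1. With a minimum of 0.5 or 2 CPM, 27 or 26 transporters counted as expressed in place of 26. Depth limited stationary CHO-S most, where culture 1 held 1038026 reads on genes. Without that culture 8269 of all genes tested passed for phase in CHO-S, in place of 2308, and 0 to 574 passed on leaving out any other culture.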
